A study of Mus musculus with 12 samples.

Results

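The genes described here are those of the Xcl1 and Flt3l axis between natural killer (NK) cells and conventional dendritic cells in intracranial melanoma. They are 10 genes (Xcl1, Xcr1, Flt3l, Flt3, Clec9a, Batf3, Zbtb46, Ccr7, Ccl22 and Itgae), taken by gene name from a count table of 54532 genes, in which each had 1 row. All 10 were among the 17320 genes that passed a filter on low counts. Messenger RNA of bulk intracranial tumors was sequenced from 12 WT C57Bl6 mice, 6 to 10 weeks old, with 3 separate mice in each of 4 groups. Every mouse carried B16-OVA melanoma cells, which express ovalbumin, under the skin of the flank, and 3 days later received B16-OVA/Fluc cells, which also express firefly luciferase, in the striatum. CD8H, ΔNK and CD8L mice received combined anti-PD-1 and anti-CTLA-4 (PC) blockade at 200 µg of each antibody on days 5 and 7 after the intracranial implantation, IgG mice received control antibody at the same amount, and all tumors were isolated on day 8. The ΔNK mice also received an NK cell-depleting antibody at 100 µg, named anti-Asialo-GM2 in the labels and anti-Asialo-GM1 in the study's methods. CD8H and CD8L mice received the same treatment and were separated afterwards by high or low abundance of CD8+ T cells in these same tumors, which means that T cell genes differ between them by selection. The ΔNK and IgG mice were not split in this way. CD8H tumors thus differ from theirs by this selection as well as by treatment, which cannot be told apart. Total counts per tumor were 16336993 to 26416214.

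Conventional dendritic cells take up antigen in tissues, carry it to lymph nodes and present it to T cells, and they fall into type 1 (cDC1), which is specialised in presenting antigen to CD8+ T cells, and type 2 (cDC2). In mouse tumors, NK cells and activated CD8+ T cells are known sources of the chemokine Xcl1, whose receptor Xcr1 is found mainly on cDC1. Lymphocytes including NK cells also make Flt3l, the cytokine that acts through the receptor kinase Flt3 to sustain dendritic cells and their precursors.

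Promoter sequences are shown for both ligands, for the cDC1 receptor Clec9a, which moved with them, and for Zbtb46, which did not, so that genes with different patterns across the tumors can be compared. They are the 250 bases before the RefSeq start site (GRCm38.p6), written 5′ to 3′ on the strand of the gene, in lower case with motif matches in capitals. They lie at chr1:164935523-164935772 (minus strand) for Xcl1, chr7:45136433-45136682 (minus strand) for Flt3l, chr6:129408612-129408861 (plus strand) for Clec9a and chr2:181424389-181424638 (minus strand) for Zbtb46.
Xcl1: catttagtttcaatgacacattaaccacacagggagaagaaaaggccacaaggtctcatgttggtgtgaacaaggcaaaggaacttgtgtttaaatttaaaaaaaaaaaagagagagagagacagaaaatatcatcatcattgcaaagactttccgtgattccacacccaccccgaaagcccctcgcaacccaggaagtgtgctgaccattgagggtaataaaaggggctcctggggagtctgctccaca
Flt3l: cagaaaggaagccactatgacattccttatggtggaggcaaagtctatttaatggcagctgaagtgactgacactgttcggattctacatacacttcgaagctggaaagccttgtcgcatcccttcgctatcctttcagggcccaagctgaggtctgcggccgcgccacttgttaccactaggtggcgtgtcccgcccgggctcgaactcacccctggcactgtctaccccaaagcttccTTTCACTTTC
Clec9a: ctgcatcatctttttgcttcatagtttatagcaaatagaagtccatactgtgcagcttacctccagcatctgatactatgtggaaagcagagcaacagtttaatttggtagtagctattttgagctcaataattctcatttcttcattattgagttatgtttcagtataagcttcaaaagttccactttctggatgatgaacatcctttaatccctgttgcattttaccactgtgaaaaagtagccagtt
Zbtb46: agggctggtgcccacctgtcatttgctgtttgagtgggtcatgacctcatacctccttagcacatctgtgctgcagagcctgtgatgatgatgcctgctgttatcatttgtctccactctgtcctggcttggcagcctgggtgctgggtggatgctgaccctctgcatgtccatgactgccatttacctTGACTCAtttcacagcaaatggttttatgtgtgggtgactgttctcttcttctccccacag

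Promoters of 8 of the 10 genes were matched in RefSeq and searched on both strands for 6 motifs, without regard to overlap between motifs. The interferon response element, searched as GAAA, any 2 bases and GAAA, matched in Flt3l on the minus strand, as TTTCACTTTC in the orientation printed, from -10 to -1 relative to the start, and occurred in 2.98% of 32851 promoters of the same length. The AP-1 letters TGANTCA matched in Zbtb46 from -61 to -55 and occurred in 6.75% of all promoters. The STAT letters TTCNNNGAA matched in Batf3 from -239 to -231 and occurred in 7.02%. The ETS-IRF element (GGAA, any 2 bases and GAAA, in 2.30% of all promoters), the T-box letters AGGTGT (11.8%) and the NF-kappa B element (GGG, any 2 bases and TTTCC, 1.41%) matched in 0 of the 8. A match describes these letters only. The RefSeq start of Zbtb46 lies inside the gene's span in the count table (chromosome 2 from 181387762 to 181459426), so its window is not the region before the first base of that span. Whether this window acts as a promoter was not tested, which limits its comparison with the ligands. The windows of Batf3, where the STAT match lies, and in part of Ccl22 and Xcl1 also fall inside the spans of these genes.

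Xcl1 and Flt3l, the ligands of the axis, were highest in CD8H and lowest in ΔNK tumors. Xcl1 (ENSMUSG00000026573, lymphotactin, chromosome 1 of GRCm38 from 164931644 to 164935527) was counted 115, 67 and 81 times in the 3 CD8H tumors, 4, 0 and 5 times in the ΔNK tumors, 39, 12 and 36 times in the CD8L tumors and 65, 25 and 27 times in the IgG tumors. In CPM, counts scaled to library size after TMM normalization, its levels were 5.48, 2.79 and 4.11 in CD8H, 0.182, 0 and 0.261 in ΔNK, 1.64, 0.668 and 1.67 in CD8L and 3.29, 1.42 and 1.26 in IgG tumors. All ΔNK tumors lay below all others, and 1 IgG tumor lay within the CD8H range. The count of 0 in 1 ΔNK tumor allows a level of up to 0.182 CPM (3 counts, counting error only). Against the mean of ΔNK, CD8L and IgG, called the 3 other groups below, Xcl1 was higher in CD8H tumors by 2.46 on the log2 scale (standard error 0.48, edgeR adjusted p = 0.00495).

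Flt3l (ENSMUSG00000110206, chromosome 7 from 45129788 to 45136432) had 7.63, 7.94 and 4.92 CPM in CD8H, 0.774, 1.09 and 1.25 CPM in ΔNK, 1.56, 1.89 and 3.68 CPM in CD8L and 3.85, 1.76 and 1.21 CPM in IgG tumors. All CD8H tumors lay above all 9 others, and the highest ΔNK tumor lay above the lowest IgG tumor. The difference between CD8H tumors and the 3 other groups was 1.94 (standard error 0.35, edgeR adjusted p = 0.00327). Where the counting ignores strand, reads in overlapping exons of Xcl1 and of the antisense gene Gm20743 cannot be told apart. The longest overlap between single exons of these genes was 98 bases. Gm20743 had 100 counts over the 12 tumors, against 476 for Xcl1. Flt3l overlaps Gm45713 on the same strand, by at most 214 bases between single exons, and Gm45713 had 0 counts over the 12 tumors. How reads in these overlaps were assigned was not tested. In bulk tumors, fewer cells of a type and less RNA per cell cannot be told apart, which holds for every gene below.

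The receptors Xcr1 and Flt3 were, like their ligands, highest on average in CD8H and lowest in ΔNK tumors. Xcr1 (ENSMUSG00000060509, chromosome 9 from 123852315 to 123862029) had 8.77, 2.58 and 4.06 CPM in CD8H, 0.319, 0.121 and 0.209 CPM in ΔNK, 1.10, 0.946 and 1.3 CPM in CD8L and 2.58, 1.36 and 1.35 CPM in IgG tumors. These levels rest on 62 to 184 counts in each CD8H tumor and 2 to 7 counts in each ΔNK tumor. Xcr1 was higher in CD8H tumors than in the 3 other groups by 2.75 on the log2 scale (standard error 0.36, edgeR adjusted p = 0.000803), ΔNK tumors lay below all others, and 1 IgG tumor was level with the lowest CD8H tumor. Flt3 (ENSMUSG00000042817, chromosome 5 from 147330741 to 147400489) had 9.30, 6.03 and 4.97 CPM in CD8H, 0.729, 0.243 and 0.731 CPM in ΔNK, 0.842, 0.779 and 2.42 CPM in CD8L and 4.86, 3.97 and 2.15 CPM in IgG tumors. The CD8H tumors lay above and the ΔNK tumors below all others, with 1 IgG tumor close to the lowest CD8H tumor. Flt3 was higher in CD8H tumors than in the 3 other groups by 2.25 (standard error 0.40, edgeR adjusted p = 0.00295).

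Of the genes that mark or specify dendritic cells, Clec9a followed the receptors, while Batf3 and Zbtb46 did not pass the test. Clec9a (ENSMUSG00000046080, chromosome 6 from 129408862 to 129424763), a cDC1 receptor for actin exposed by dead cells, had 9.25, 2.91 and 4.57 CPM in CD8H, 0.182, 0.425 and 0.261 CPM in ΔNK, 1.01, 1.56 and 1.81 CPM in CD8L and 2.63, 1.25 and 1.07 CPM in IgG tumors. The CD8H tumors lay above and the ΔNK tumors below all others, and the log2 difference of CD8H tumors from the 3 other groups was 2.65 (standard error 0.38, edgeR adjusted p = 0.00117). Its exons overlap those of Clec1b, by at most 184 bases between single exons, and Clec1b had 18 counts over the 12 tumors.

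Batf3 (ENSMUSG00000026630, chromosome 1 from 191097847 to 191108945), a transcription factor that cDC1 require and that other leukocytes also express, had 11.4, 4.24 and 6.40 CPM in CD8H, 5.28, 2.55 and 4.33 CPM in ΔNK, 5.56, 3.34 and 4.23 CPM in CD8L and 3.85, 3.40 and 3.64 CPM in IgG tumors. The groups overlapped except that CD8H lay above IgG, and the difference of CD8H tumors from the 3 other groups was 0.87 (standard error 0.30, edgeR adjusted p = 0.0544). This lay at the threshold of 0.05, with an adjusted p of 0.0243 without CD8H replicate 2 and 0.0475 without ΔNK replicate 1, and DESeq2 (adjusted p = 0.0207) and limma voom (adjusted p = 0.0109) called it higher. Zbtb46 (ENSMUSG00000027583), a transcription factor of conventional dendritic cells that endothelial cells also express, had 11.2, 8.36 and 7.51 CPM in CD8H, 8.06, 7.95 and 6.89 CPM in ΔNK, 8.85, 8.29 and 7.35 CPM in CD8L and 8.51, 8.61 and 8.77 CPM in IgG tumors. CD8H tumors overlapped every other group, and ΔNK tumors lay just below IgG tumors. The log2 difference from the 3 other groups was 0.15 (standard error 0.16, edgeR adjusted p = 0.486), and it was -0.04 without CD8H replicate 1.

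Ccr7, Ccl22 and Itgae, which are linked to migrating and mature dendritic cells and also to T cells, were higher in CD8H tumors. Ccr7 (ENSMUSG00000037944, chromosome 11 from 99144196 to 99155077), the receptor that guides dendritic cells and naive T cells to lymph nodes, had 27.4, 12.8 and 11 CPM in CD8H, 1.32, 0.0607 and 0.157 CPM in ΔNK, 2.74, 1.06 and 3.30 CPM in CD8L and 10.3, 4.81 and 5.83 CPM in IgG tumors. All CD8H tumors lay above all others, although 1 IgG tumor came close, and the difference from the 3 other groups was 3.04 (standard error 0.57, edgeR adjusted p = 0.00409). Ccl22 (ENSMUSG00000031779, chromosome 8 from 94745590 to 94751699), a chemokine of mature dendritic cells and macrophages that attracts cells bearing Ccr4, had 35.5, 8.24 and 10.6 CPM in CD8H, 1.64, 0.182 and 0.365 CPM in ΔNK, 3.29, 2.45 and 3.91 CPM in CD8L and 8.97, 7.02 and 7.93 CPM in IgG tumors. CD8H replicate 1 stood far above the rest, and 1 CD8H tumor lay below 1 IgG tumor. The log2 difference from these groups was 2.75 (standard error 0.50, edgeR adjusted p = 0.00353).

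Itgae (ENSMUSG00000005947, chromosome 11 from 73090583 to 73147446) encodes CD103, an integrin of migratory cDC1 and of tissue-resident T cells. It had 8.20, 5.24 and 5.38 CPM in CD8H, 0.820, 1.88 and 0.365 CPM in ΔNK, 1.73, 1.95 and 4.47 CPM in CD8L and 5.07, 2.10 and 2.66 CPM in IgG tumors. The CD8H tumors lay above all others, 1 IgG tumor and 1 CD8L tumor came close, and ΔNK overlapped CD8L. The difference from the 3 other groups was 1.59 (standard error 0.44, edgeR adjusted p = 0.0227). Its adjusted p was 0.0766 without CD8H replicate 1 and 0.0508 without CD8H replicate 2.

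**Figure D1:**
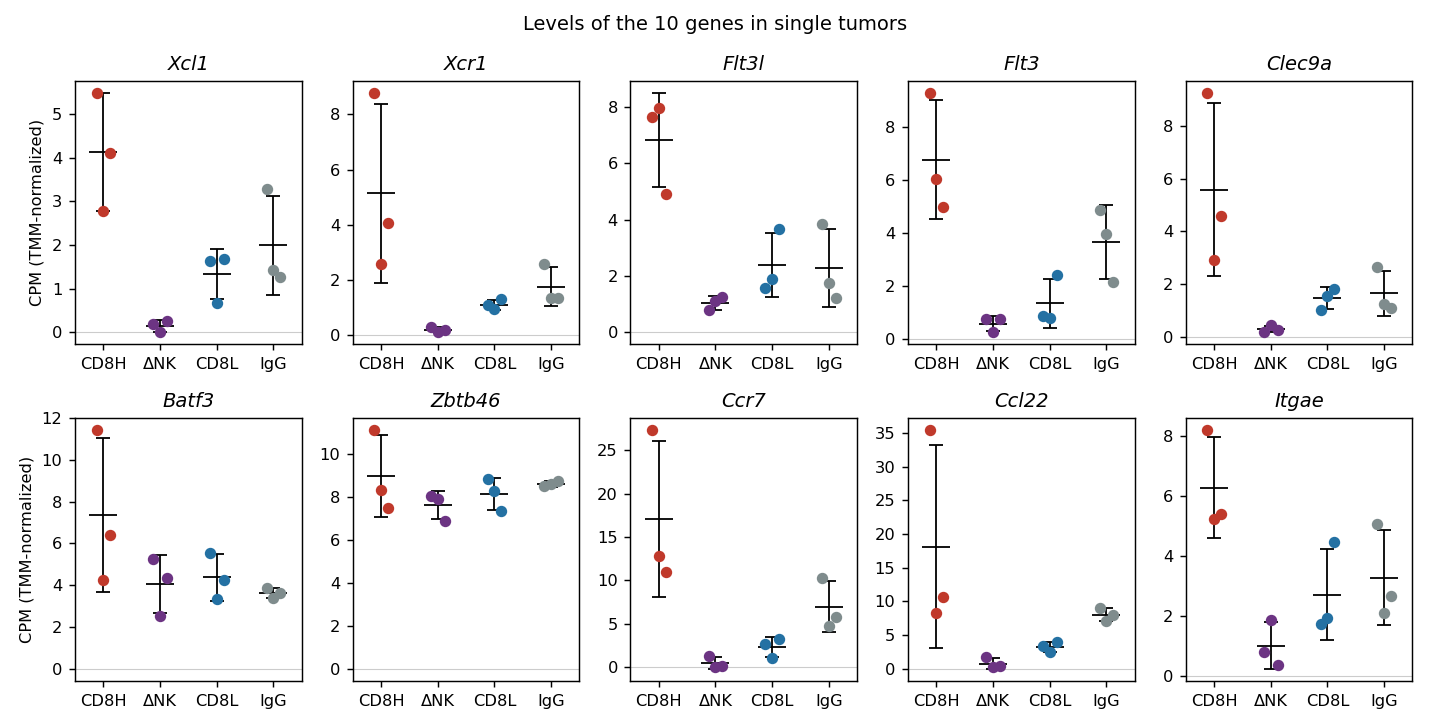
Level of each of the 10 genes in CPM (vertical axes, linear) in single tumors (points) of CD8H, ΔNK, CD8L and IgG mice, with the group mean and SD (n = 3) as bars. Xcl1 was 5.48, 2.79 and 4.11 CPM in CD8H and 0.182, 0 and 0.261 CPM in ΔNK tumors, while Zbtb46 in CD8H tumors overlapped every other group.

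Levels of different genes were compared as FPKM, the authors' values scaled by gene length and sequencing depth. In CD8H tumors the mean FPKM was highest for Ccl22 (13.8 ± 10.9, SD, n = 3), followed by Batf3 (10.1 ± 4.6), Ccr7 (8.73 ± 4.19), Xcl1 (8.03 ± 2.27) and Flt3l (7.94 ± 1.98). Neighbours in this order differed by less than their SD. Clec9a (4.11 ± 2.24), Zbtb46 (3.44 ± 0.592), Flt3 (1.81 ± 0.528), Itgae (1.67 ± 0.365) and Xcr1 (1.16 ± 0.680) were lower. In ΔNK tumors the FPKM order was led by Batf3 (5.26 ± 1.61), Zbtb46 (2.76 ± 0.252) and Flt3l (1.14 ± 0.295), with Xcl1 at 0.269 ± 0.246 and Xcr1 lowest at 0.0464 ± 0.0194. Batf3 and Zbtb46 thus had the 2 highest mean FPKM of the 10 genes in ΔNK tumors, as they had in CD8L tumors (5.75 ± 1.15 and 2.98 ± 0.105 FPKM). In CD8L tumors, Flt3l (2.69 ± 1.47), Xcl1 (2.48 ± 1.08) and Ccl22 (2.41 ± 0.645) differed from Zbtb46 by less than their SD.

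Against the 3 other groups, 8 of the 10 genes were called higher in CD8H tumors and 0 lower, with a median log2 fold change of 2.36 over the 10 genes and 0.05 over all genes. A gene was called where its p, before and after Benjamini-Hochberg adjustment over all tested genes, was at most 0.05. Of all tested genes, 14.4% were called higher and 11.9% lower in this comparison. The CD8H tumors lay above all 9 other tumors for 5 of the 10 genes (Flt3l, Flt3, Clec9a, Ccr7 and Itgae), against 10.6% of all genes tested. The ΔNK tumors lay below all 9 other tumors for 5 genes (Xcl1, Xcr1, Flt3, Clec9a and Ccl22), against 4.32% of all genes.

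The comparison of CD8H with ΔNK tumors sets tumors rich in CD8+ T cells under PC blockade against tumors of mice given the same blockade and the depleting antibody. Depletion and the selection of CD8H tumors for CD8+ T cells cannot be told apart in it. The same 8 genes were called higher in CD8H tumors, with a median log2 difference of 3.90 over the 10 genes and 0.04 over all genes, where 15.7% of all genes were called higher and 14.6% lower. Xcl1 differed by 4.70 (standard error 0.78, edgeR adjusted p = 0.00225), Xcr1 by 4.50 (0.57, adjusted p = 0.00112), Clec9a by 4.26 (0.59, adjusted p = 0.00127) and Ccr7 by 4.99 (0.92, adjusted p = 0.00366). Differences were smaller for Flt3l (2.71, standard error 0.50, edgeR adjusted p = 0.00357) and Itgae (2.62, standard error 0.61, edgeR adjusted p = 0.0109). Batf3 differed by 0.86 (standard error 0.39, edgeR adjusted p = 0.109) and Zbtb46 by 0.24 (standard error 0.20, edgeR adjusted p = 0.353), and neither was called. Batf3 was called in this comparison by limma voom (adjusted p = 0.0400) and without CD8H replicate 2 (edgeR adjusted p = 0.0488). It was also called with the replicate number as a block (edgeR adjusted p = 0.0383).

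CD8H and CD8L mice received the same treatment, and 5 of the 10 genes were called higher in CD8H tumors, against 6.03% of all genes. These were Xcr1 (log2 difference 2.20, standard error 0.50, edgeR adjusted p = 0.0252), Flt3 (2.32, 0.56, adjusted p = 0.0295), Clec9a (1.93, 0.52, adjusted p = 0.0392), Ccl22 (2.49, 0.71, adjusted p = 0.0482) and Ccr7 (2.84, 0.82, adjusted p = 0.0496). By edgeR the ligands were not called, with 1.62 for Xcl1 (standard error 0.64, edgeR adjusted p = 0.117) and 1.52 for Flt3l (standard error 0.47, edgeR adjusted p = 0.0611). Both were called by DESeq2 (adjusted p = 0.0154 for Xcl1 and 0.00996 for Flt3l) and by limma voom (adjusted p = 0.0191 and 0.0258), as were the 5 genes above by both. No CD8L tumor reached the lowest CD8H tumor for 8 of the 10 genes, Xcl1, Flt3l and Itgae among them, as for 15.6% of all genes. These calls depended on single tumors and on the samples fitted: 0 of the 10 genes were called without CD8H replicate 1, without CD8L replicate 1, without CD8L replicate 2 or in a fit of the CD8H and CD8L tumors alone, 2 without CD8H replicate 2, IgG replicate 2, IgG replicate 3 or ΔNK replicate 3, and 3 without CD8H replicate 3. Of all genes, the fit of all tumors called 1939, and the same fits called 2 without CD8H replicate 1, 0 without CD8L replicate 1, 0 without CD8L replicate 2, 0 with the CD8H and CD8L tumors alone and 718 without CD8H replicate 2. DESeq2 called 7 of the 10 and 4199 of all genes, and limma voom 8 of the 10 and 3870 of all genes.

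Against IgG tumors, which received control antibody, edgeR called 0 of the 10 genes in CD8H tumors, where 0.577% of all genes were called higher. At an unadjusted p of at most 0.05 it found 4 of the 10 genes (Xcr1, Flt3l, Clec9a and Batf3) and 3307 of all genes, and DESeq2 called 3 of the 10 and 2088 of all genes and limma voom 6 of the 10 and 2606 of all genes, against 129 of all genes by edgeR. The median log2 difference over the 10 genes was 1.12, against 0.06 over all genes. Clec9a differed by 1.75 (standard error 0.51, edgeR adjusted p = 0.102), Flt3l by 1.59 (0.47, adjusted p = 0.107), Xcr1 by 1.54 (0.48, adjusted p = 0.119) and Xcl1 by 1.05 (0.63, adjusted p = 0.412). Ccr7 differed by 1.28 (standard error 0.77, edgeR adjusted p = 0.415), Ccl22 by 1.18 (0.68, adjusted p = 0.391), Itgae by 0.94 (0.57, adjusted p = 0.426) and Flt3 by 0.89 (0.53, adjusted p = 0.411). For Ccl22 the difference ranged from 0.22 to 1.55 when single tumors were left out. IgG replicate 1 had the highest level of its group for Xcl1, Xcr1, Flt3l, Flt3, Clec9a, Batf3, Ccr7, Ccl22 and Itgae.

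The ΔNK tumors were set against CD8L tumors and against IgG tumors. Against IgG tumors, 9 of the 10 fold changes were below 0 and the median was -2.59, against 0.01 over all genes. By edgeR 0 of the 10 genes were called, 8 passed at an unadjusted p of at most 0.05, and 3 of all tested genes (0.0173%) were called lower and 2590 passed unadjusted. DESeq2 called 6 of the 10 genes lower (Xcl1, Xcr1, Flt3, Clec9a, Ccr7 and Ccl22), and limma voom called these and Itgae. Of all genes, DESeq2 called 922 and limma voom 1374. The log2 difference was -3.65 for Xcl1 (standard error 0.76, edgeR adjusted p = 0.127), -2.97 for Xcr1 (0.56, adjusted p = 0.117), -3.71 for Ccr7 (0.88, adjusted p = 0.149), -3.41 for Ccl22 (0.76, adjusted p = 0.138), -2.66 for Flt3 (0.58, adjusted p = 0.138) and -2.51 for Clec9a (0.57, adjusted p = 0.144). Flt3l differed by -1.13 (standard error 0.48, edgeR adjusted p = 0.319), and Batf3 by 0.16 (standard error 0.39, edgeR adjusted p = 0.836).

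Against CD8L tumors, all 10 fold changes of ΔNK tumors were below 0, with a median of -1.76 (-0.02 over all genes). By edgeR 0 of the 10 genes and 0% of all genes were called, 7 of the 10 and 1052 of all genes passed at an unadjusted p of at most 0.05, DESeq2 called 3 of the 10 (Xcl1, Xcr1 and Clec9a) and 158 of all genes and limma voom 0 of either. Xcl1 differed by -3.08 (standard error 0.76, edgeR adjusted p = 0.496) and Clec9a by -2.33 (standard error 0.57, edgeR adjusted p = 0.496). Every ΔNK tumor lay below every CD8L tumor for Xcl1, Xcr1, Flt3l, Flt3, Clec9a and Ccl22, as for 6.88% of all genes.

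Between CD8L and IgG tumors edgeR called 0 of the 10 genes and 0% of all genes, with 1 of the 10 (Flt3) and 379 of all genes at an unadjusted p of at most 0.05, and DESeq2 and limma voom called 0 of the 10. Flt3 differed by -1.43 (standard error 0.55), Ccr7 by -1.56 (standard error 0.79) and Ccl22 by -1.31 (standard error 0.69), each with an edgeR adjusted p of 0.974. Flt3l differed by 0.06 (standard error 0.47, edgeR adjusted p = 0.993).

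**Figure D2:**
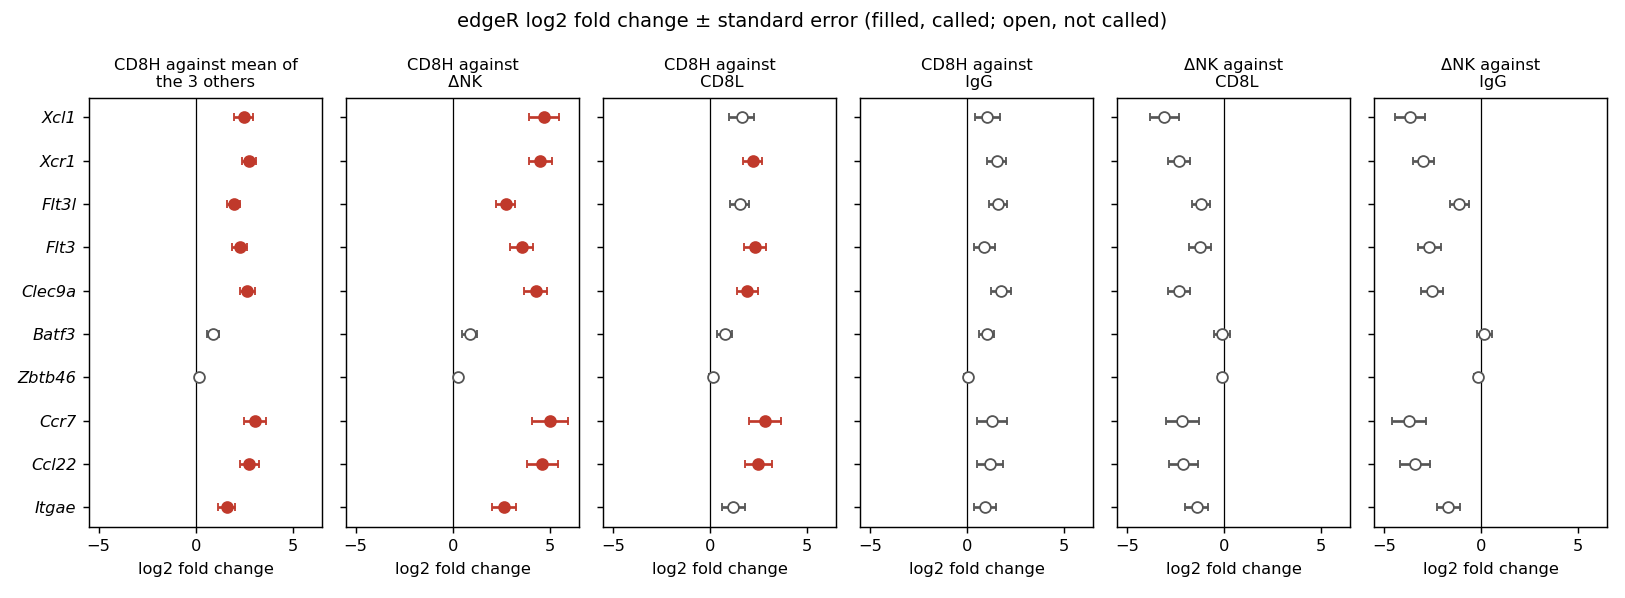
The edgeR log2 fold change (horizontal axes) with its standard error for the 10 genes (rows) in 6 comparisons (panels), filled where called and open where not. Called genes numbered 8 against the 3 other groups and against ΔNK, 5 against CD8L and 0 in the 3 remaining panels.

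Transcripts of NK cell receptors were few in ΔNK tumors, while some other NK cell markers were not. Ncr1, the receptor NKp46, had 168 counts over the 3 CD8H tumors, 2 over the ΔNK tumors, 59 over the CD8L tumors and 113 over the IgG tumors. Klrb1c, the NK cell receptor NK1.1, had 182, 3, 109 and 148 counts over the CD8H, ΔNK, CD8L and IgG tumors. Of the same list, the transcription factor Eomes had 39 counts over the ΔNK and 109 over the IgG tumors, and the integrin Itga2, which other cells also express, had 170 and 187 counts. The summed level of the 14 NK cell markers ranged over 82.3 to 179 CPM in CD8H, 3.64 to 6.97 CPM in ΔNK, 14.7 to 34.3 CPM in CD8L and 24.2 to 54.2 CPM in IgG tumors. The ΔNK tumors were lowest and the CD8L and IgG tumors overlapped, as for Xcl1. Of 13 NK cell markers tested, 12 were called higher in CD8H tumors than in the 3 other groups and 2 were called lower in ΔNK than in IgG tumors. Over all genes the shares were 14.4% and 0.0173%. Against CD8L tumors alone 3 of the 13 were called higher in CD8H tumors (6.03% of all genes), and against IgG tumors alone 0 (0.577%). At an unadjusted p of at most 0.05 by edgeR, 7 of the 13 and 3307 of all genes passed against IgG tumors.

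Other leukocyte markers moved with the dendritic cell genes, and their part in the results was not tested. The 12 CD8 T cell and T cell markers summed to 273 to 630 CPM in CD8H, 13.9 to 35.8 CPM in ΔNK, 24.4 to 140 CPM in CD8L and 84.5 to 122 CPM in IgG tumors, and all 12 were called higher in CD8H tumors than in the 3 other groups. The 14 macrophage and monocyte markers, of which 13 were called higher, summed to 1598 to 2453 CPM in CD8H, 216 to 631 CPM in ΔNK, 531 to 1004 CPM in CD8L and 806 to 1313 CPM in IgG tumors. Called higher were also 6 of 6 regulatory T cell, 6 of 6 tested B cell, 9 of 10 plasmacytoid dendritic cell and 6 of 10 microglia markers. Over all genes 14.4% were called higher and 11.9% lower. Against IgG tumors alone, edgeR called 2 of 12 T cell, 1 of 6 regulatory T cell and 1 of 6 B cell markers higher in CD8H tumors. It called 0 of the macrophage and monocyte, plasmacytoid dendritic cell and microglia markers, against 0.577% of all genes. Of 16 neuron markers all 16 had fold changes above 0 in CD8H tumors against the 3 other groups, with a median log2 difference of 1.45 (2.51 against ΔNK), but 0 were called by edgeR (0 at an unadjusted p of at most 0.05), with sums of 707 to 2701 CPM in CD8H, 424 to 725 CPM in ΔNK, 447 to 1517 CPM in CD8L and 505 to 1602 CPM in IgG tumors. The labelled melanoma tissue expressed the 12 melanocyte lineage markers at a sum of 13753 to 32832 CPM over all 12 tumors, and 3 of these markers were called lower in CD8H tumors.

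Other cDC1 genes followed Xcr1 and Clec9a in part. Of 14 tested genes of the cDC1 list, 11 were called higher in CD8H tumors than in the 3 other groups and 0 lower. Over all genes the shares were 14.4% and 11.9%. The median log2 difference of the list was 1.35. Btla, an inhibitory receptor of cDC1 and lymphocytes, averaged 6.91 ± 3.57 CPM in CD8H, 0.381 ± 0.272 in ΔNK, 1.21 ± 0.252 in CD8L and 2.07 ± 0.426 in IgG tumors (SD, n = 3 each), a log2 difference from the 3 other groups of 2.79 (standard error 0.36, edgeR adjusted p = 0.000698). Irf8, a transcription factor of cDC1 and macrophages, rose by 2.20, Naaa, a lysosomal amidase, by 1.57 and Wdfy4, which cDC1 need for cross-presentation, by 1.38. Id2, Nfil3 and Cadm1, which many other cells express, were not called, at -0.04, 0.35 and 0.05. Against ΔNK tumors 12 of the 14 were called higher in CD8H tumors (15.7% of all genes), against CD8L tumors 5 (6.03%) and against IgG tumors 0 (0.577%). At an unadjusted p of at most 0.05 by edgeR, 11 of the 14 and 3307 of all 17320 genes passed against IgG tumors.

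The cDC2 list was mixed, with 5 of 11 tested genes higher and 1 lower in CD8H tumors than in the 3 other groups (median 0.66). Over all genes the shares were 14.4% and 11.9%. Irf4, a transcription factor of cDC2 and of activated lymphocytes, rose by 2.50, Cd7, which NK and T cells also express, by 2.91 and Clec10a, a lectin of cDC2 and macrophages, by 1.75, while Klf4, a transcription factor of cDC2 and of many non-immune cells, fell by 0.87. Cd209a, a lectin typical of cDC2, averaged 1.19 ± 0.410 CPM in CD8H, 0.263 ± 0.176 CPM in ΔNK, 1.05 ± 0.297 CPM in CD8L and 1.56 ± 0.670 CPM in IgG tumors, so CD8H overlapped CD8L and IgG. Of the 8 pan dendritic cell genes 7 were called higher (median 1.84). Csf2rb, the shared receptor chain for GM-CSF, rose by 2.46, the peptidase Dpp4 by 2.6, the maturation marker Cd83 by 2.18 and the endocytic receptor Ly75 by 1.02. The 8 genes summed to 238 to 356 CPM in CD8H, 34.1 to 67.8 CPM in ΔNK, 75.9 to 115 CPM in CD8L and 109 to 163 CPM in IgG tumors.

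Of 20 tested genes of mature migratory dendritic cells, which accompany Ccr7 and Ccl22, 14 were called higher and 1 lower in CD8H tumors than in the 3 other groups (median 1.69). Over all genes the shares were 14.4% and 11.9%. The costimulatory ligand Cd80 rose by 1.73, the interleukin 15 receptor chain Il15ra by 2.12, the survival factor Birc3 by 1.66 and Cd274, which encodes PD-L1 and which tumor cells also express, by 2.43. Mreg, which acts in pigment cells too, fell by 0.46. The actin-bundling gene Fscn1, which many cells other than dendritic cells express, averaged 139 ± 5.90 CPM in CD8H and 164 ± 13.2 CPM in ΔNK tumors and was not called (log2 difference from the 3 other groups -0.14, edgeR adjusted p = 0.226). Il12b, the p40 chain of interleukin 12, had 232 counts over the CD8H, 12 over the ΔNK, 36 over the CD8L and 118 over the IgG tumors. Ccl17, which shares the receptor Ccr4 with Ccl22, had 43, 10, 26 and 30 counts over the same groups, too few to follow in single tumors.

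Among 17 tested genes of Flt3 and GM-CSF signaling, 10 were called higher and 1 lower in CD8H tumors than in the 3 other groups (median 0.51). Over all genes the shares were 14.4% and 11.9%. The receptor chain Csf2rb2 rose by 2.98, the lymphoid and myeloid transcription factor Ikzf1 by 2.37, the receptor chain Csf2ra by 1.59 and the leukocyte kinase subunit Pik3cd by 1.53, while the phosphatase Ptpn11 fell by 0.29. The partners of Ccr7, Ccl22 and Itgae were in part near 0. The Ccr7 ligand Ccl19 had 5 counts over the CD8H, 0 over the ΔNK, 0 over the CD8L and 2 over the IgG tumors, and the other ligand, Ccl21a, was listed at 0 in all 12, a value that is uncertain because near-identical copies of the gene share its reads. Ccr4, the receptor for Ccl22, averaged 3.40 ± 0.754 CPM in CD8H, 0.426 ± 0.317 CPM in ΔNK, 1.31 ± 1.26 CPM in CD8L and 0.548 ± 0.120 CPM in IgG tumors and rose by 2.31 in CD8H tumors (standard error 0.59, edgeR adjusted p = 0.0161). Itgb7, which pairs with Itgae, rose by 2.41, the transcription factor Runx3 by 2.80 and Tgfb1, which induces CD103, by 1.27. Called higher were 4 of 8 tested partner genes, against 14.4% of all genes. Against IgG tumors alone, edgeR called 1 of the 17 Flt3 and GM-CSF signaling genes higher in CD8H tumors. It called 0 of the partner, cDC2, pan dendritic cell and mature migratory dendritic cell genes, against 0.577% of all genes.

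**Figure D3:**
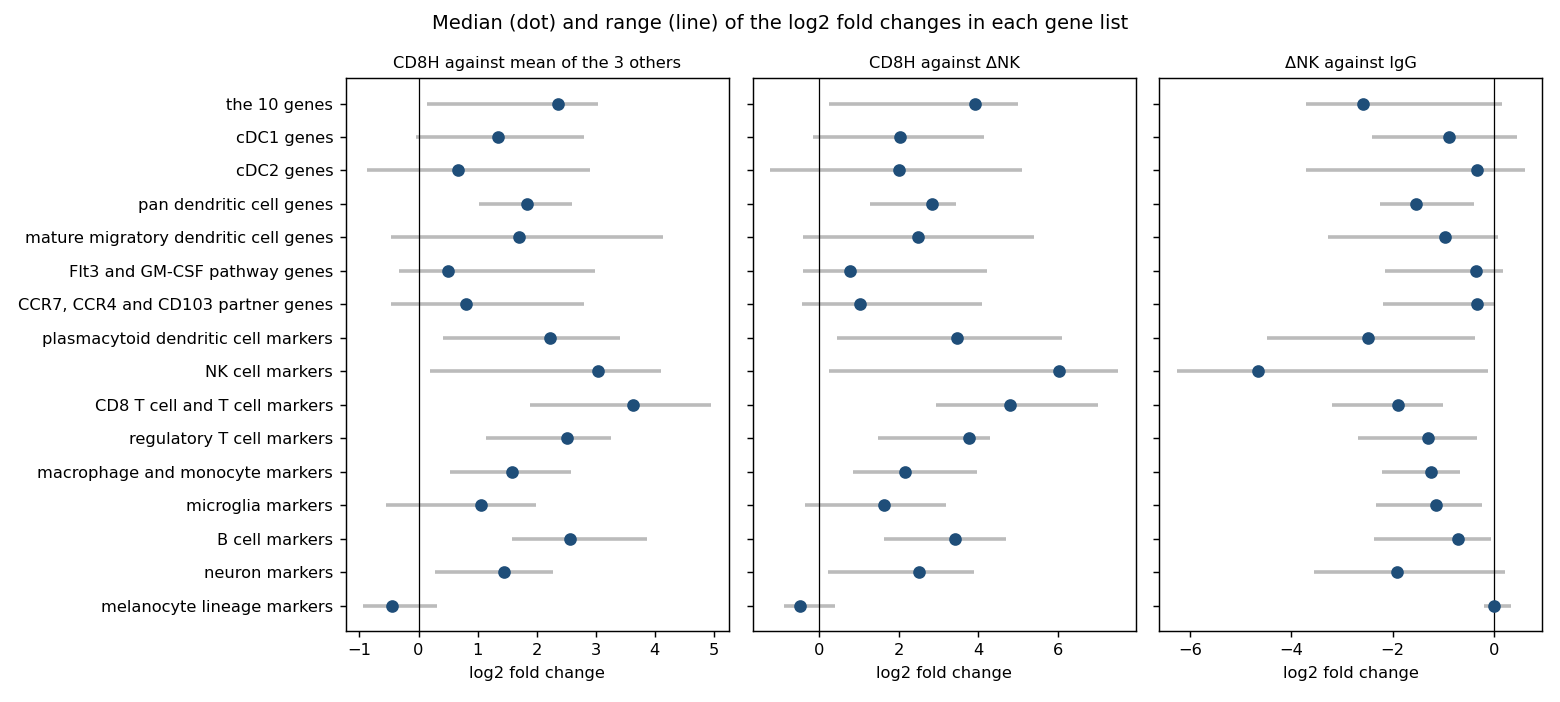
Median (dot) and range (line) of the edgeR log2 fold changes of the 10 genes and of 15 gene lists (rows) in 3 comparisons (panels, horizontal axes). The 10 genes had medians of 2.36 in CD8H against the 3 other groups, 3.90 in CD8H against ΔNK and -2.59 in ΔNK against IgG, and the NK cell markers had 3.03, 6.02 and -4.65.

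Across the 12 tumors, Xcl1 was correlated with 6 of the 8 dendritic cell genes. The share of all tested genes that correlated as strongly was not computed for either ligand. Among genes that averaged 1 or more in log2 CPM, the highest r was 0.98 for both ligands, with Sp100 for Xcl1 and Neb for Flt3l. Pearson's r of log2 CPM was 0.96 with Xcr1, 0.94 with Ccr7, 0.93 with Ccl22, 0.91 with Flt3, 0.88 with Clec9a and 0.77 with Itgae (permutation test with 100000 resamples, two-sided, adjusted p over 16 relations 5.33e-05 to 0.00541). Spearman's rho for these 6 was 0.87 to 0.94 (permutation adjusted p 0.000120 to 0.000680). With Batf3 r was 0.58 (permutation adjusted p = 0.0590, rho 0.55) and with Zbtb46 0.46 (permutation adjusted p = 0.147, rho 0.36). Without ΔNK replicates 1 and 2, the tumors farthest from the median of Xcl1, r for the 6 genes was 0.86 to 0.96.

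Flt3l was correlated with the same 6 genes, with r of 0.91 for Clec9a, 0.85 for Xcr1, 0.84 for Flt3, 0.84 for Itgae, 0.76 for Ccr7 and 0.72 for Ccl22 (permutation adjusted p 6.40e-05 to 0.00976, rho 0.78 to 0.94 with permutation adjusted p 0.000120 to 0.00504). With Batf3 r was 0.50 (permutation adjusted p = 0.102, rho 0.34) and with Zbtb46 0.34 (permutation adjusted p = 0.290, rho 0.17). Without CD8H replicates 1 and 2, which were farthest from the median of Flt3l, r for the 6 genes was 0.61 to 0.91.

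The tumors form groups, and the pooled values include the differences between them. The pooled permutation test shuffled all tumors without regard to group, so its p-values include these differences too. Without the CD8H tumors, r over 9 tumors was 0.62 to 0.97 between Xcl1 and the 6 genes and 0.53 to 0.87 between Flt3l and them, with exact permutation adjusted p of 0.00251 to 0.115 and 0.00892 to 0.178. Without the ΔNK tumors, a choice made after seeing the data, r was 0.84 to 0.92 for Xcl1 and 0.62 to 0.90 for Flt3l. Here the relation of Xcl1 with Batf3 passed (r = 0.75, exact permutation adjusted p = 0.0241). That of Flt3l with Ccl22 no longer passed (r = 0.62, exact permutation adjusted p = 0.0851). With group means removed, r was 0.74 for Xcl1 and Xcr1 (exact permutation adjusted p = 0.0617), 0.75 for Xcl1 and Flt3 (exact permutation adjusted p = 0.119), 0.75 for Xcl1 and Batf3 (exact permutation adjusted p = 0.0679), 0.23 for Xcl1 and Clec9a and -0.10 for Xcl1 and Itgae, and 0 of 16 relations passed after adjustment. Within groups, the relation of Flt3l ranged from -0.01 with Ccl22 to 0.65 with Flt3 over the 6 genes. The genes of each relation were measured in the same libraries, and the summed leukocyte markers given above differed between the same groups.

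**Figure D4:**
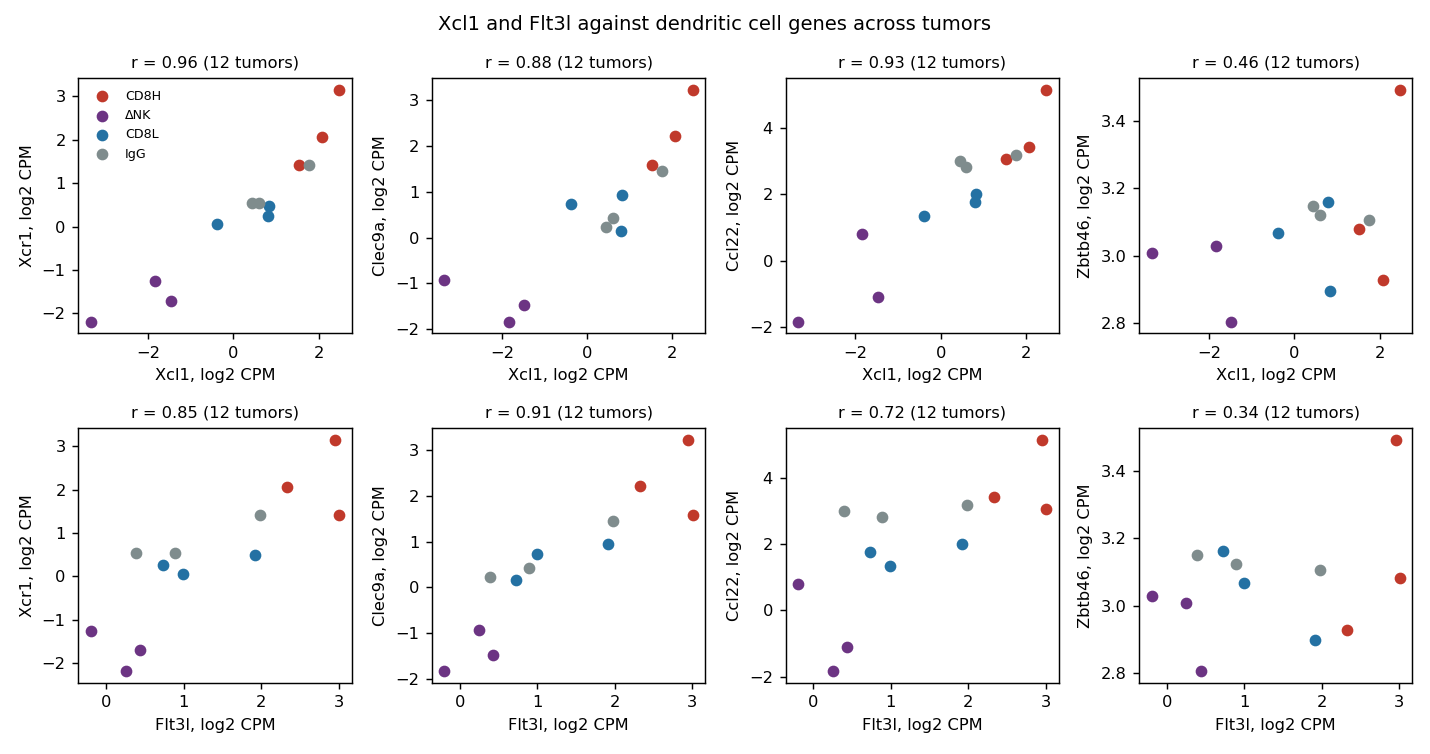
Log2 CPM of Xcl1 (upper row) and Flt3l (lower row) on the horizontal axes against Xcr1, Clec9a, Ccl22 and Zbtb46 on the vertical axes in 12 tumors (points, colored by group), with Pearson's r above each panel. For Xcl1, r was 0.96, 0.88, 0.93 and 0.46 in this order, and the ΔNK tumors lay at the lower left of the first 3 panels.

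Among all tested genes that averaged 1 or more in log2 CPM, those most like each of the 10 genes across the 12 tumors were named by Pearson's r of log2 CPM. Ccr7 and Ccl22 were most like each other (r = 0.98), and Wdfy4 followed for both (0.98 and 0.97). Xcr1 was most like Wdfy4, Ctsw and Ptpn22 (0.98 each), and Clec9a most like Ctsw (0.96), St8sia4 (0.95) and Cd80 (0.94). Xcl1 was most like the interferon-induced gene Sp100 and the class I genes H2-Q6 and H2-T10 (0.98 each), of which the last 2 belong to a family whose members resemble each other in sequence, so their single counts are uncertain. Flt3 was most like Arhgap25, Kmo and Fzd1 (0.98 each), Flt3l like Neb (0.98), Zfp945 (0.97) and Atxn7l1 (0.96), and Itgae like Pla2r1 (0.95), Il16 (0.92) and the B cell receptor gene Cd22 (0.90). Batf3 was most like Tmbim4 (0.96), Prr13 (0.95) and Snx5 (0.94), and Zbtb46 like Zfp263 (0.87), Nat6 (0.83) and Ap1g2 (0.80), none of which was among the most alike genes of the other 8.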

How the data were processed

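Messenger RNA of 12 bulk intracranial tumors, 3 separate mice per group, was sequenced. According to the labels, the authors used STAR 2.6.1d, StringTie 1.3.3b, featureCounts 1.5.0-p3 and DESeq2 1.26.0 with GRCm38.p6, and deposited raw counts per gene. The authors also deposited FPKM per gene, used here only to compare levels between genes and, as log2(FPKM + 0.1), as an alternative in the correlations. The sources used here do not give the strand setting of the counting or the annotation release. The dosing days differ between the submitters' design text, which is followed here, and the study's methods. Groups come from the sample labels.

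Counts entered the quasi-likelihood test of edgeR 4.0.16 (R 4.3.3), in 1 fit of all 12 tumors (8 residual degrees of freedom), after TMM normalization and a filter on low counts (filterByExpr, 17320 of 54532 genes kept), with Benjamini-Hochberg adjustment over all tested genes in each of 7 comparisons. Levels are CPM. A prior count of 2 was added for log2 CPM. The edgeR code was first tested on simulated data. Replicates differed from each other beyond sampling noise (chi-square of 15.0 to 131 per degree of freedom), so each tumor counted once. The upper limit given for the ΔNK tumor without Xcl1 reads covers counting error only. Standard errors of log2 differences were derived from the difference and the F statistic of the edgeR test, and include the spread between tumors.

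The 10 genes and 15 lists were chosen with earlier results of these data known, so their counts are no independent support. The text names the 10 genes, up to 4 genes per list with the smallest p in CD8H against the 3 other groups, and the 3 genes most like each of the 10. Klf4 was among those 4, and Mreg, Ptpn11, Fscn1, Id2, Nfil3, Cadm1, Cd209a, Il12b, Ccl17, Ccl19, Ccl21a, Ncr1, Klrb1c, Eomes and Itga2 were named after their values were seen. Alternatives were DESeq2 1.42.0, limma 3.58.1 (voom with sample quality weights), RLE normalization, no filter, the compared tumors alone, the replicate number as a block and each tumor left out. Gene overlaps come from GENCODE M21, in which 53499 of the table's 54532 genes have the same start and end, and promoters from RefSeq.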

Additional observations from a re-analysis of the deposited data

How the results depend on the processing

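The numbers of genes called depended on the test more than the direction of the 10 genes did. In CD8H against the 3 other groups, 7 to 9 of the 10 genes were called in every alternative, and in CD8H against ΔNK 8 to 9. For all genes, limma voom called 7099 in CD8H against the 3 other groups (4551 by edgeR). In CD8H against CD8L (1939 genes and 5 of the 10 by edgeR), DESeq2 called 4199 genes, limma voom 3870 genes and 8 of the 10, the fit of the compared tumors alone 0 and 0, and a fit with the neuron marker mean as covariate, chosen after seeing the data, 3259 genes. In CD8H against IgG (129 genes, 0 of the 10), DESeq2 called 2088 and 3, limma voom 2606 and 6, no filter 300 genes, the compared tumors alone 0 and the neuron covariate 1612 and 2. In ΔNK against CD8L (0 and 0), DESeq2 called 158 and 3. In ΔNK against IgG (3 and 0), DESeq2 called 922 and 6, limma voom 1374 and 7, no filter 12 genes, the compared tumors alone 28 genes and the neuron covariate 0. In CD8L against IgG DESeq2 called 1 gene. The cause of these differences was not tested.

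Same-numbered tumors came from separate mice, and not every pair correlated above 0.1, so the numbers were not taken to pair the tumors. Their deviations correlated at -0.36 to 0.73 over 18 pairs (median 0.22, 11 over 0.1), against a median of -0.14 over 36 pairs with different numbers (8 over 0.1), and 4 of 12 tumors correlated best with their own number in every group. With the replicate block, 2923 genes were called in CD8H against CD8L, 884 genes and 1 of the 10 in CD8H against IgG, and 34 genes and 2 of the 10 (Xcr1 and Ccl22) in ΔNK against IgG.

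Leaving out 1 tumor at a time, 2695 to 7061 genes were called in CD8H against the 3 other groups, 0 to 4014 genes and 0 to 6 of the 10 in CD8H against CD8L, 3412 to 6387 genes in CD8H against ΔNK, 0 to 757 in CD8H against IgG and 0 to 5 in ΔNK against IgG. Reversed directions concerned only differences that were not called. Zbtb46 was -0.011, -0.041 and -0.12 by limma voom in CD8H against the 3 other groups, CD8L and IgG, and its ranges over left-out tumors were -0.040 to 0.26, -0.036 to 0.26 and -0.14 to 0.15, the lowest without CD8H replicate 1. Batf3 in ΔNK against CD8L was 0.076 by limma voom, 0.11 without CD8L replicate 1 and 0.13 without ΔNK replicate 2 (range -0.35 to 0.13), and in ΔNK against IgG -0.071 with the neuron covariate and -0.10 without ΔNK replicate 1 (range -0.10 to 0.37). In CD8L against IgG, Clec9a was 0.25 by limma voom (range over left-out tumors -0.42 to 0.29), Itgae -0.87 to 0.16 and Flt3l -0.43 to 0.64.

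Among correlations, without the CD8H tumors Flt3l had r of -0.052 with Batf3 and -0.0087 with Zbtb46. With group means removed, Xcl1 had r of -0.024 with Zbtb46 and -0.096 with Itgae, and Flt3l had -0.081 with Batf3, -0.15 with Zbtb46 and -0.015 with Ccl22. Without CD8H replicate 1 Flt3l and Zbtb46 had r of -0.050 (range -0.050 to 0.45). Counts of 0 to 5 for Xcl1 in each ΔNK tumor limit how precisely differences between ΔNK tumors can be read.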
